A study of Mus musculus with 9 samples.

Results

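Disease-associated microglia genes are genes that microglia, the resident macrophages of the brain, switch on around dying cells, amyloid deposits and demyelinated axons, while the genes of their surveying state go down. The programme centres on lipid and lysosome handling, and its later part depends in mice on the receptor TREM2 and its adaptor TYROBP. Several of its genes are also expressed by macrophages that enter the brain from blood, so that in tissue RNA they do not mark microglia alone. The 7 genes examined here, *Lgals3*, *Gpnmb*, *Cst7*, *Spp1*, *Cd9*, *Cd52* and *Igf1*, were given by name, and each was read from the probe set that the array annotation assigned to its symbol alone, taking the probe set with the highest mean over the 9 arrays where a gene had several. By that rule 6 of the 7 were analysed among 17097 genes in all. *Spp1*, which encodes the secreted phosphoprotein osteopontin, had no such probe set in the annotation used and was not analysed here.

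The arrays measured RNA from brain tissue around the injection site in male C57Bl/6J mice 10 to 12 weeks old. The 3 groups were LPS 4 d and LPS 1 d, injected into the striatum with lipopolysaccharide, a molecule of the bacterial outer membrane that is sensed through TLR4, and PBS, injected with saline buffer and collected at 4 d. Each group had 3 arrays, and each array a pool of RNA from 3 perfused mice. No PBS tissue of 1 d was analysed here, so the injury of injection at 1 d and the effect of LPS at 1 d cannot be told apart, and both LPS groups were set against the same 3 PBS arrays. The values are log2 expression values, on which a difference of 1 is a 2-fold change. The arrays had medians of 4.32 to 4.37. Background was taken as 3.49, the highest mean among 23 nonspecific control probe sets. A gene was called higher or lower at an adjusted p under 0.05 from limma with a fold change of at least 1.5.

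Of the 6 genes, 5 were higher in LPS 4 d than in PBS tissue, *Cd52*, *Lgals3*, *Gpnmb*, *Cst7* and *Cd9*, against 4.21% of all genes called higher in that comparison. By the moderated F test over the 3 groups, these 5 varied and *Igf1*, on its brightest probe set, did not, against 7.67% of all genes. The count called higher was 3 of 6 in LPS 1 d tissue, *Cd52*, *Lgals3* and *Cd9*, against 3.86% of all genes. *Gpnmb* and *Cd52* were also higher in LPS 4 d than in LPS 1 d tissue, 2 of 6 genes against 1.84% of all genes. None of the 6 was called lower in any comparison, where 0.205% of all genes were lower in LPS 4 d and 0.532% in LPS 1 d tissue than in PBS tissue, and 1.37% were lower in LPS 4 d than in LPS 1 d tissue. Their median log2 change was 2.65 for LPS 4 d and 0.82 for LPS 1 d against PBS, beside −0.02 and −0.03 over all genes, and 2.35 and 0.75 with *Cst7* at the bound that its background level in PBS tissue allows. For LPS 4 d against LPS 1 d it was 1.02, beside 0.00 over all genes. In tissue RNA, more cells that express a gene and more RNA per cell cannot be told apart, and this holds for every value below.

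**Figure D1:**
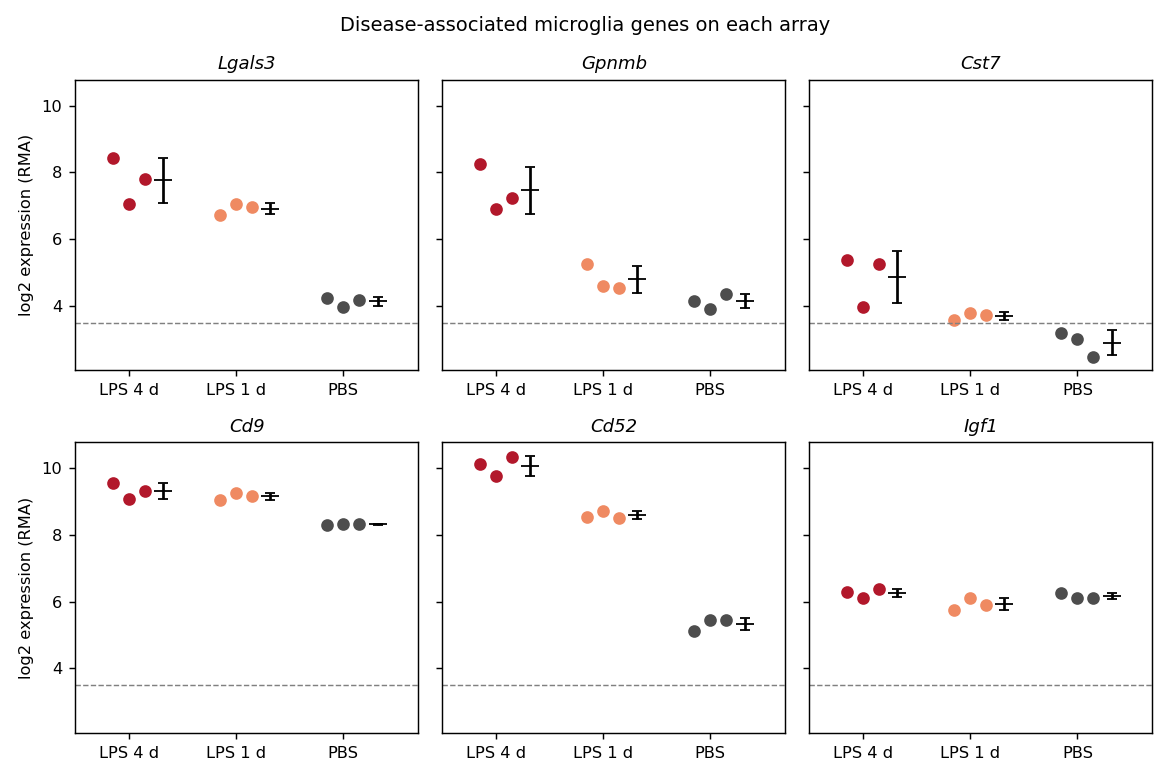
The log2 expression of the 6 genes on each of the 9 arrays, with 1 panel per gene and the groups LPS 4 d, LPS 1 d and PBS from left to right. Points are arrays (pools of 3 mice), the bar beside them is the mean with its SD, and the dashed line is the background of 3.49. *Cd52* on the LPS 4 d arrays lay between 9.76 and 10.36 and on the PBS arrays between 5.12 and 5.45, whereas the *Igf1* arrays of the 3 groups overlapped.

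The first 3 genes encode membrane glycoproteins. *Cd52*, on chromosome 4, encodes a very short peptide held at the surface of lymphocytes, monocytes and macrophages by a lipid anchor. Its log2 expression was 10.14, 9.76 and 10.36 on the LPS 4 d arrays, 8.55, 8.73 and 8.50 on the LPS 1 d arrays and 5.12, 5.44 and 5.45 on the PBS arrays. The groups did not overlap, and the lowest LPS 4 d array lay 1.03 above the highest LPS 1 d array. *Cd52* was higher in LPS 4 d than in PBS tissue by 4.75 (SE 0.16, adjusted p = 3.17e-06 from limma), a 26.9-fold difference and the 6th largest increase of all genes. In LPS 1 d tissue it was higher than in PBS tissue by 3.26 (SE 0.16, adjusted p = 8.03e-06), or 9.58-fold. The step of 1.49 between LPS 4 d and LPS 1 d tissue was itself past the test (SE 0.16, adjusted p = 0.00148). On the log2 scale, the change at 1 d was 68.6% of the change at 4 d.

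*Cd9*, on chromosome 6, encodes a tetraspanin that organises adhesion receptors and other proteins in the membrane, and it is expressed by oligodendrocytes and endothelium as well as by microglia. Of the 5 genes called higher in LPS 4 d tissue it had the smallest increase and the smallest standard error. Values were 9.57, 9.07 and 9.33 on the LPS 4 d arrays, 9.05, 9.26 and 9.19 on the LPS 1 d arrays and 8.31, 8.34 and 8.33 on the PBS arrays. Every LPS array stood above every PBS array, while the LPS 4 d and LPS 1 d arrays overlapped. The log2 difference from PBS was 1.00 in LPS 4 d tissue (SE 0.12, adjusted p = 0.00184 from limma) and 0.84 in LPS 1 d tissue (SE 0.12, adjusted p = 0.00462), and *Cd9* ranked 498th and 557th by increase. LPS 4 d and LPS 1 d tissue differed by 0.16 (95% interval −0.12 to 0.44, adjusted p = 0.650). With a minimum fold change of 2 neither call against PBS was kept, since the folds were 1.999 and 1.79.

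*Gpnmb*, also on chromosome 6, encodes a transmembrane glycoprotein of phagocytic macrophages and lysosomes that is related to the melanosome protein PMEL. Its larger step lay between the LPS groups. Log2 expression was 8.24, 6.89 and 7.25 on the LPS 4 d arrays, 5.25, 4.58 and 4.53 on the LPS 1 d arrays and 4.13, 3.91 and 4.35 on the PBS arrays. The lowest LPS 4 d array was 1.64 above the highest LPS 1 d array, whereas the LPS 1 d and PBS arrays were separated by 0.18. *Gpnmb* was higher in LPS 4 d than in PBS tissue by 3.33 (SE 0.33, adjusted p = 4.95e-04 from limma), or 10.04-fold. Against LPS 1 d tissue it was higher by 2.67 (SE 0.33, adjusted p = 0.00304), or 6.37-fold, the 6th largest increase of all genes in that comparison. In LPS 1 d tissue the difference from PBS was 0.66 (95% interval −0.09 to 1.40, adjusted p = 0.385), and 0.43 without LPS 1 d replicate 1. A second *Gpnmb* probe set, annotated to more than 1 gene, was not used.

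*Lgals3*, on chromosome 14, and *Igf1* encode secreted proteins. Galectin-3, the product of *Lgals3*, is a lectin that binds galactose-containing glycans and that activated macrophages and microglia release. Its expression was 8.42, 7.06 and 7.81 on the LPS 4 d arrays, 6.72, 7.04 and 6.96 on the LPS 1 d arrays and 4.23, 3.96 and 4.18 on the PBS arrays. All LPS arrays were clear of the PBS arrays by at least 2.497, but the lowest LPS 4 d array was only 0.03 above the highest LPS 1 d array. *Lgals3* was higher than in PBS tissue by 3.64 in LPS 4 d tissue (SE 0.28, adjusted p = 1.17e-04 from limma, 12.5-fold) and by 2.78 in LPS 1 d tissue (SE 0.28, adjusted p = 4.65e-04, 6.88-fold). The difference of 0.86 between LPS 4 d and LPS 1 d tissue missed the threshold after adjustment (adjusted p = 0.213, with an unadjusted 95% interval of 0.220 to 1.497). Without LPS 4 d replicate 2 it was 1.21 and past the test (adjusted p = 0.0161), and without LPS 4 d replicate 1 it was 0.53 and not past it (adjusted p = 0.381).

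*Igf1*, on chromosome 10, encodes insulin-like growth factor 1, a survival and growth factor made in brain by neurons, vessels and, in disease models, microglia. It was the 1 gene of the 6 with no called change. On its brightest probe set, 1437401_PM_at, log2 expression was 6.30, 6.12 and 6.37 on the LPS 4 d arrays, 5.76, 6.12 and 5.89 on the LPS 1 d arrays and 6.27, 6.12 and 6.12 on the PBS arrays, and the same value, 6.12, occurred on 4 of the 9 arrays. The groups overlapped in all 3 comparisons. LPS 4 d and PBS tissue differed by 0.09 (95% interval −0.16 to 0.35, adjusted p = 0.726 from limma), LPS 1 d and PBS tissue by −0.24 (−0.50 to 0.01, adjusted p = 0.336) and LPS 4 d and LPS 1 d tissue by 0.34 (0.09 to 0.59, adjusted p = 0.215).

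The other 3 *Igf1* probe sets did not all give the same picture. On 1419519_PM_at expression was 4.85, 4.40 and 5.05 in LPS 4 d tissue, 3.94, 3.84 and 4.14 in LPS 1 d tissue and 4.39, 4.32 and 4.42 in PBS tissue, so that every LPS 1 d array lay below every other array. Its difference of 0.79 between LPS 4 d and LPS 1 d tissue passed the test (SE 0.16, adjusted p = 0.0336 from limma), while those from PBS, 0.39 in LPS 4 d tissue and −0.40 in LPS 1 d tissue, did not (adjusted p = 0.257 and 0.251). It was also the only *Igf1* probe set to pass the moderated F test over the 3 groups (adjusted p = 0.0455). On 1452014_PM_a_at the 3 differences were 0.46, −0.03 and 0.49, and on 1434413_PM_at 0.19, 0.10 and 0.09, in the order LPS 4 d and then LPS 1 d against PBS and last LPS 4 d against LPS 1 d, none past the test. The sign for LPS 1 d against PBS was therefore negative on 3 probe sets and positive on 1434413_PM_at. Which transcripts each probe set reads was not tested.

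**Figure D2:**
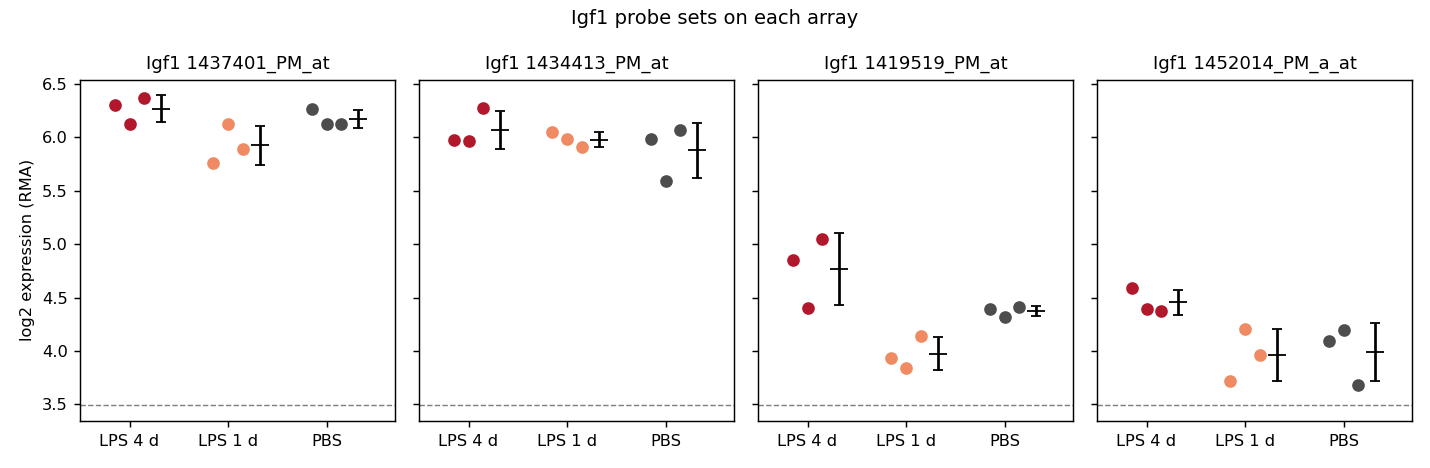
The log2 expression of the 4 *Igf1* probe sets on each array, ordered from left to right by their mean, with LPS 4 d, LPS 1 d and PBS arrays as points and the mean and SD beside them. The dashed line is the background of 3.49. On 1419519_PM_at all LPS 1 d arrays, between 3.84 and 4.14, were below all LPS 4 d arrays, between 4.40 and 5.05. This also held on 1452014_PM_a_at, with 3.72 to 4.21 and 4.38 to 4.59. Only on 1419519_PM_at was the difference past the test.

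*Cst7*, on chromosome 2, encodes cystatin F, an inhibitor of lysosomal cysteine proteases that is made by cells of the blood lineage and, in disease models, by microglia. Its log2 expression was 5.37, 3.97 and 5.26 on the LPS 4 d arrays, 3.56, 3.79 and 3.72 on the LPS 1 d arrays and 3.19, 3.01 and 2.46 on the PBS arrays. No PBS array was above background, so the group has only an upper limit there, and against background the mean of *Cst7* was at least 2.596-fold higher in LPS 4 d tissue. That bound carries no sampling error, and LPS 4 d replicate 2, at 3.97, lay nearest to the background of 3.49. The fitted difference was 1.98 (SE 0.34, adjusted p = 0.0127 from limma). This was the least stable of the calls: without LPS 4 d replicate 1, without LPS 4 d replicate 3 or without PBS replicate 3, the adjusted p was 0.0517, 0.0528 and 0.0542 in that order, and with the ordinary test in place of the moderated one it was 0.0765. In LPS 1 d tissue the fitted difference of *Cst7* from PBS, 0.81, missed the threshold (95% interval 0.03 to 1.59, adjusted p = 0.299 from limma). The LPS 1 d mean was 1.15-fold above background, a value that carries no sampling error. LPS 4 d and LPS 1 d tissue differed by 1.17 (0.40 to 1.95, adjusted p = 0.155), and by 1.63 without LPS 4 d replicate 2 (adjusted p = 0.00609). Without LPS 4 d replicate 1 this difference was 0.92 (adjusted p = 0.365) and without LPS 4 d replicate 3 it was 0.98 (adjusted p = 0.327).

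**Figure D3:**
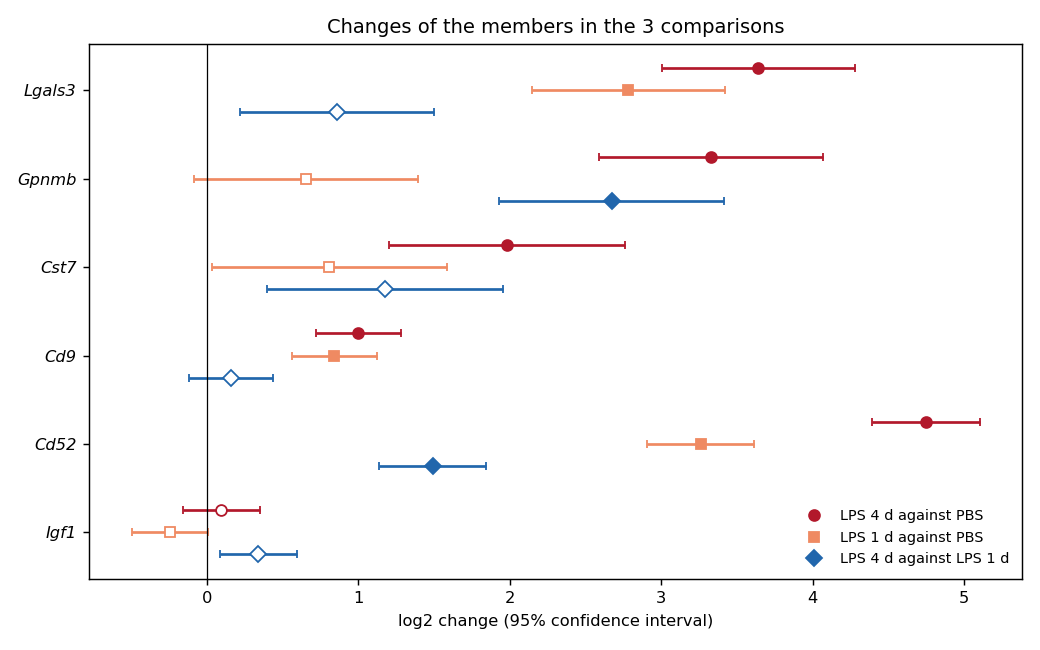
The log2 change of each gene in the 3 comparisons, with its 95% confidence interval from limma, for LPS 4 d (circles) and LPS 1 d (squares) against PBS and for LPS 4 d against LPS 1 d (diamonds). Filled symbols passed the test. For *Gpnmb* the LPS 1 d change was 0.66 and the LPS 4 d change 3.33, whereas for *Cd9* they were 0.84 and 1.00.

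The order of the groups was LPS 4 d, LPS 1 d, PBS for 5 of the 6 genes by their means. The LPS 1 d log2 change, as a share of the LPS 4 d log2 change, was 84.1% for *Cd9*, 76.4% for *Lgals3*, 68.6% for *Cd52* and 19.7% for *Gpnmb*. It has no value for *Cst7*, which was not above background in PBS tissue. Neighbours in that order that missed the test were LPS 4 d and LPS 1 d for *Cd9*, *Lgals3* and *Cst7*, and LPS 1 d and PBS for *Gpnmb* and *Cst7*. For *Igf1* the order of the means was LPS 4 d, PBS, LPS 1 d, with no neighbours past the test.

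Within LPS 4 d tissue the genes were not spread evenly over the arrays. LPS 4 d replicate 2 was the lowest of the 3 arrays for all 6 genes, by as much as 0.90 below the group mean for *Cst7* and 0.70 for *Lgals3*. LPS 4 d replicate 1 was the highest for *Lgals3*, *Gpnmb*, *Cst7* and *Cd9*, and replicate 3 for *Cd52* and *Igf1*. The same replicate 2 was also the lowest LPS 4 d array in the mean log2 level of the monocyte and macrophage markers (6.20, 5.76 and 6.04 on replicates 1, 2 and 3) and of the astrocyte markers (8.42, 8.14 and 8.19), and the highest in that of the neuronal markers (9.49, 9.64 and 9.45). Replicate 2 was lowest as well for other disease-associated microglia genes (8.24, 7.90 and 8.15), cysteine proteases (9.15, 8.90 and 9.09) and oligodendrocyte markers (8.72, 8.46 and 8.55). The same held for the endothelial markers and for the lists around MITF, osteopontin receptors, tetraspanins and CD52. The remaining lists did not share this. Replicate 3 was the lowest for the homeostatic microglial genes (7.25, 7.21 and 7.07) and for the neutrophil, lymphocyte and fibroblast markers. It was also the lowest for the galectins, the cystatins and the bone matrix genes. Replicate 1 was the lowest for the border macrophage markers (4.239, 4.244 and 4.413) and the IGF system. The part of these differences between pools in the spread of the 6 genes was not tested. In LPS 1 d tissue the SD of these genes was between 0.11 and 0.40, and in LPS 4 d tissue between 0.13 and 0.78. Without replicate 2 the count of genes called was 5 of 6 for LPS 4 d against PBS. For LPS 4 d against LPS 1 d it was 4 of 6, *Lgals3* and *Cst7* being added to *Gpnmb* and *Cd52*. The calls over all 17097 genes rose too without that array, from 720 to 769 higher against PBS and from 315 to 359 against LPS 1 d.

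**Figure D4:**
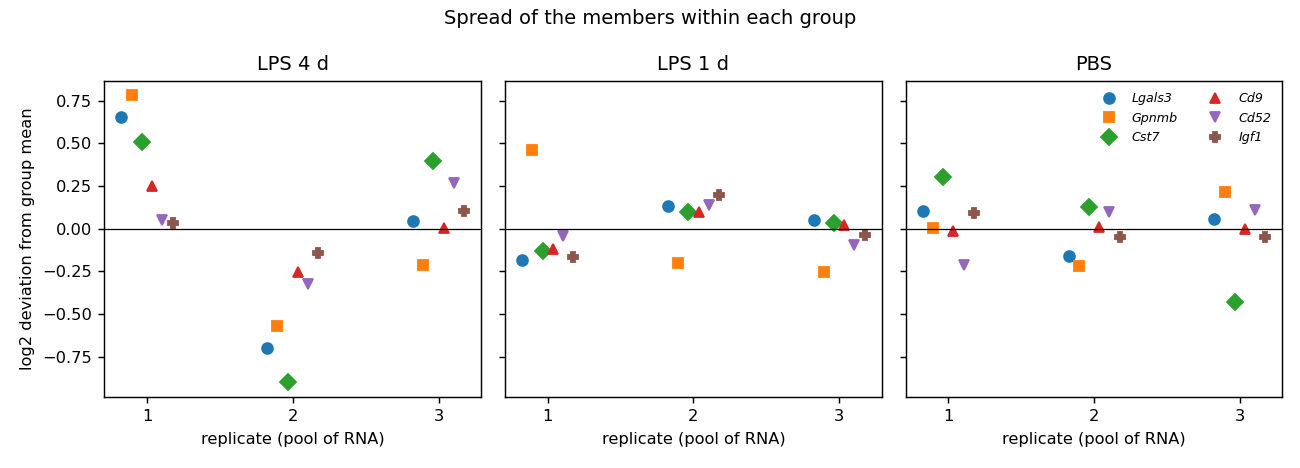
The deviation of each gene from its own group mean on each array, in log2 units, with 1 panel each for LPS 4 d, LPS 1 d and PBS and the replicate number on the horizontal axis. Symbols mark the genes. In LPS 4 d tissue all 6 genes were below their mean on replicate 2, down to −0.90 for *Cst7*.

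Correlations of the profiles across the 9 arrays are descriptive, since the arrays share the 3 groups. *Lgals3* and *Cd9* had a Pearson r of 0.992, and of 0.957 after each group's mean was removed. *Lgals3* and *Cd52* had an r of 0.979, which was 0.498 without the group means, and *Cd9* and *Cd52* one of 0.957, which was 0.576. *Gpnmb* had an r of 0.887 with *Cst7*, 0.825 with *Cd52*, 0.799 with *Lgals3* and 0.742 with *Cd9*. Without the group means the order changed, with 0.420, 0.235, 0.694 and 0.561 for the same genes. *Igf1* had an r of 0.03 to 0.44 with the other genes. Without the group means its r ran from −0.05 with *Gpnmb* to 0.65 with *Cst7*.

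Among 1306 other genes that varied over the groups by the moderated F test, those most like *Cd52* over the 9 arrays were genes of macrophages and other leukocytes. These were *Lyz2*, lysozyme (r = 0.997), *Fyb*, an adaptor of leukocyte adhesion (r = 0.996), and *Adgre1*, the F4/80 antigen (r = 0.996). *Lgals3* and *Cd9* had nearest genes in common, *Nfe2l2*, the factor NRF2 of the oxidative stress response (r = 0.995 and 0.994), and *Vim*, the filament protein vimentin (r = 0.992 and 0.996). The remaining ones were the astrocyte water channel gene *Aqp4* for *Lgals3* (r = 0.991) and the lipid droplet gene *Plin2* for *Cd9* (r = 0.994). For *Gpnmb* they were the lysosomal protease *Lgmn* (r = 0.986), the receptor *Csf1r*, on which microglia depend (r = 0.983), and the lysosomal membrane gene *Lamp1* (r = 0.982). *Cst7* was nearest to *Rhog*, a small GTPase (r = 0.985), *Slc25a10*, a mitochondrial carrier (r = 0.979), and *Rsu1*, a partner of integrin adhesions (r = 0.973). For *Igf1* the highest r were lower, 0.907 for *Ppp1r14a*, a myosin phosphatase inhibitor of smooth muscle, 0.906 for *Gkn3* and 0.857 for *Pdlim2*. *Igf1*, on the brightest probe set used here, did not itself vary by that F test, and genes that did not were left out of the search. Its lower r therefore cannot be compared with those of the other genes.

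The stretches of DNA before 4 of these genes were set side by side because *Lgals3* and *Cd9* had the profiles most alike, while *Gpnmb* had a called step between the LPS groups and *Cst7* the one PBS level at background. RefSeq windows of 250 bases before the annotated start (GRCm38.p6) were matched for 5 of the 6 genes, *Cd52* being the one not matched. That of *Igf1* lay inside the annotated span of the gene, not before its first base, and is not described. Each is printed from 5′ to 3′ on the strand of its gene, and capitals mark a match to 1 of 5 motifs.
*Lgals3* (GRCm38.p6, chr14:47373610-47373859, plus strand): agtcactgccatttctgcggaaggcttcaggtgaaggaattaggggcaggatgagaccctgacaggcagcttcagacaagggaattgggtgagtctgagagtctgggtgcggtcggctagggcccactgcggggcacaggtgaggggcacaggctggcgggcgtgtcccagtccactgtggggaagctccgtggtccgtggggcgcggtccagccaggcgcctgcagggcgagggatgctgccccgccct
*Cd9* (GRCm38.p6, chr6:125494761-125495010, minus strand): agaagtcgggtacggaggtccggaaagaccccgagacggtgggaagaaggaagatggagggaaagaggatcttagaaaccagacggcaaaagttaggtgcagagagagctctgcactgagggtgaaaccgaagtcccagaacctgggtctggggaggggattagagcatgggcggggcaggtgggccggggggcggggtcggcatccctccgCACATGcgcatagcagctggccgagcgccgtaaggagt
*Gpnmb* (GRCm38.p6, chr6:49036268-49036517, plus strand): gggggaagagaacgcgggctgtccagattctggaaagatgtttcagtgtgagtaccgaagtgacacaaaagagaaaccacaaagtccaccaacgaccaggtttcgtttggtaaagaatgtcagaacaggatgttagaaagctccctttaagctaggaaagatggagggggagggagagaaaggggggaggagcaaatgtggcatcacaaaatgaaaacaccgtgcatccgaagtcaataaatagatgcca
*Cst7* (GRCm38.p6, chr2:150570165-150570414, plus strand): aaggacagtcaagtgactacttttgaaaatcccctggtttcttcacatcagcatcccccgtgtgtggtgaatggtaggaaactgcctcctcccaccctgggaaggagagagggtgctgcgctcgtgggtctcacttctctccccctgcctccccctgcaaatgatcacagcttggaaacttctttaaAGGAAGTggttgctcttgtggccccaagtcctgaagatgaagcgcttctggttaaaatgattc
The motifs, searched on both strands, were the AP-1 motif TGANTCA, the E-boxes CACGTG and CATGTG, the PU.1 motif AGGAAGT and an NF-kB motif of 10 letters. Of 32851 RefSeq windows of the same length, 6.75%, 6.02%, 12.3%, 7.69% and 0.356% held them, in that order. The *Cst7* window held the PU.1 letters, starting 63 bases before the start, and the *Cd9* window held CATGTG on the other strand, 38 bases before it. The *Lgals3* and *Gpnmb* windows held none of the 5, which says only that these letters are not in them. The windows of *Lgals3* and *Cd9* had 66% and 61.6% G and C and 13 and 16 CpG dinucleotides. Those of *Gpnmb* and *Cst7* had 47.2% and 51.6% G and C with 7 and 4 CpG, where the median over all windows was 52.4% and 6.

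Of 30 other disease-associated microglia genes analysed, 22 were higher in LPS 4 d than in PBS tissue and 0 lower, with a median log2 change of 1.58. In LPS 1 d tissue 16 were higher and 0 lower, with a median of 0.77. Between LPS 4 d and LPS 1 d tissue 10 were higher, among them *Trem2* and *Tyrobp*, and 2 were lower. The lower genes were the chemokines *Ccl3* and *Ccl4*. *Ccl3* was 2.18 lower in LPS 4 d than in LPS 1 d tissue (adjusted p = 0.00493 from limma) and *Ccl4* 2.79 lower (adjusted p = 2.06e-04), though both were higher than in PBS tissue at either time. *Lyz2*, which was nearest to *Cd52*, was higher than in PBS tissue by 4.71 in LPS 4 d and by 3.23 in LPS 1 d tissue. *Ch25h*, which makes an oxysterol from cholesterol, was not above background in PBS tissue, and was at least 15.8-fold higher in LPS 4 d and at least 25.5-fold higher in LPS 1 d tissue. *Lilrb4a*, an inhibitory receptor gene of myeloid cells, was higher by 3.49 and 4.70 at those times.

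The receptor pair that the programme depends on was named after its values were seen. *Trem2* expression was 7.02 to 7.38 on the LPS 4 d arrays, 4.41 to 5.03 on the LPS 1 d arrays and 5.41 to 5.74 on the PBS arrays. It was higher by 1.61 in LPS 4 d than in PBS tissue (adjusted p = 9.60e-04 from limma), and its difference of −0.74 in LPS 1 d tissue missed the threshold (adjusted p = 0.0612). *Tyrobp* was higher by 2.31 in LPS 4 d tissue (adjusted p = 5.81e-06) and by 1.30 in LPS 1 d tissue (adjusted p = 6.04e-05). *Apoe*, the lipid carrier gene of the same programme, was higher by 0.61 in LPS 4 d tissue (adjusted p = 0.00750), and its LPS 1 d difference was −0.18 (adjusted p = 0.409). The 8 genes of this list not called in LPS 4 d tissue included the lipase gene *Lpl* (0.10) and *Fabp5*, a fatty acid binding protein gene (0.18). *Itgax*, called higher in LPS 4 d tissue, was at background on average in every group.

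**Figure D5:**
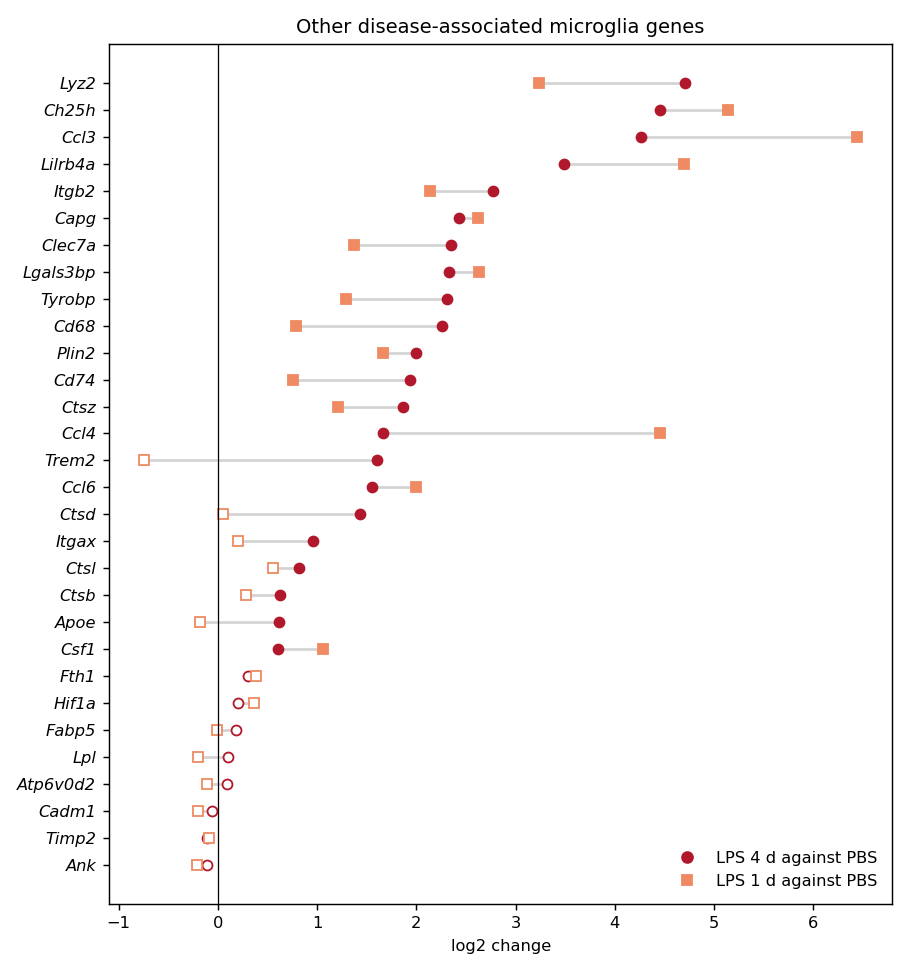
The log2 change against PBS of the 30 other disease-associated microglia genes, for LPS 4 d (circles) and LPS 1 d (squares), ordered by the LPS 4 d change. Filled symbols passed the test, 22 for LPS 4 d and 16 for LPS 1 d. *Lyz2* is at the top with 4.71 and 3.23.

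Of 15 homeostatic microglial genes, which mark the surveying state, 7 were higher and 0 lower in LPS 4 d than in PBS tissue, whereas 0 were higher and 3 lower in LPS 1 d tissue. Between LPS 4 d and LPS 1 d tissue 10 were higher and 0 lower. The median log2 changes were 0.51, −0.39 and 1.15 in these comparisons. The genes lower in LPS 1 d tissue were the purinergic receptors *P2ry12* (−2.14) and *P2ry13* (−0.83) and the receptor *Gpr34*, which averaged 5.58 in LPS 4 d and 5.70 in PBS tissue and was at background on average in LPS 1 d tissue. In LPS 4 d tissue their differences from PBS were −0.47, −0.13 and −0.13, none past the test. *Fcrls*, an Fc receptor-like gene of mouse microglia, was higher in LPS 4 d than in PBS tissue by 2.23, *Cx3cr1*, the fractalkine receptor, by 1.51, *Csf1r* by 1.32 and *Rnase4*, a secreted ribonuclease, by 1.32.

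The proteases that cystatin F and its relatives act on were read beside *Cst7*. Of 9 cysteine proteases, 7 were higher in LPS 4 d than in PBS tissue, 3 in LPS 1 d than in PBS tissue and 4 in LPS 4 d than in LPS 1 d tissue, with 0 lower in each and medians of 0.99, 0.40 and 0.34. *Ctsc*, cathepsin C, which activates granule proteases and is the best known target of cystatin F, was higher than in PBS tissue by 2.86 in LPS 4 d and by 2.81 in LPS 1 d tissue. *Ctss*, which trims the MHC class II chaperone, was higher by 1.66 in LPS 4 d tissue (adjusted p = 2.82e-05 from limma), and its LPS 1 d difference was 0.40 (adjusted p = 0.0708). *Ctsh* and *Ctsz* were higher at both times, by 2.18 and 1.87 in LPS 4 d and by 0.74 and 1.21 in LPS 1 d tissue. Of 7 other cystatins only *Cstb*, a cytosolic inhibitor, was called, higher by 0.75 in LPS 4 d tissue, and 4 of the 7 were at background in every group.

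Beside *Lgals3*, 3 of 7 genes of galectins and their ligands were higher in LPS 4 d and 2 in LPS 1 d than in PBS tissue, and 4 of the 7 were at background in every group. *Lgals3bp*, the galectin-3 binding protein, also on the list of other disease-associated genes, was higher by 2.33 in LPS 4 d and by 2.63 in LPS 1 d tissue. *Lgals9* was higher by 1.92 and 2.04 at those times, and *Lgals1* by 1.60 in LPS 4 d tissue (adjusted p = 0.00940 from limma), with 0.93 in LPS 1 d tissue (adjusted p = 0.105). The difference between LPS 4 d and LPS 1 d tissue was past the test for 0 of the 7.

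MITF and its relatives TFE3, TFEB and TFEC are transcription factors of lysosome and melanosome genes, and MITF is known to act on *Gpnmb*. Their own genes were not called in any comparison. *Mitf* differed from PBS by 0.01 in LPS 4 d and −0.07 in LPS 1 d tissue, *Tfe3* by 0.28 and 0.20, *Tfeb* by 0.45 and 0.29, and *Tfec* was at background in every group. Of the 8 genes on this list, the called ones were *Cd44*, a hyaluronan receptor that GPNMB binds, higher by 2.31 in LPS 4 d and by 3.75 in LPS 1 d tissue, and *Sdc4*, a heparan sulphate proteoglycan, higher by 1.40 in LPS 1 d tissue. Both were lower in LPS 4 d than in LPS 1 d tissue (differences of −1.45 and −1.08), where *Gpnmb* was higher by 2.67.

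Of 10 tetraspanins and partners of CD9, 4 were higher in LPS 4 d and 3 in LPS 1 d than in PBS tissue. The leukocyte tetraspanin *Cd53* was higher by 2.18 in LPS 4 d and by 1.35 in LPS 1 d tissue. *Cd37*, expressed mainly by B cells and other leukocytes, averaged 4.92 in LPS 4 d tissue, where it was called higher, and was at background on average in LPS 1 d and PBS tissue. The broadly expressed *Cd151* was higher by 0.64 and 0.76 and *Tspan4* by 0.73 and 1.13 in LPS 4 d and LPS 1 d tissue.

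Among 5 receptors and partners linked to soluble CD52 and its Siglec receptors, *Ptpn6*, the phosphatase SHP-1, was higher by 3.19 in LPS 4 d and by 2.66 in LPS 1 d tissue, and *Cd24a* by 0.90 in LPS 1 d tissue. The 3 Siglec genes, *Siglecg*, *Siglece* and *Siglec1*, were at background in every group. Of 12 genes of the IGF system none was called in LPS 4 d tissue and 1 in LPS 1 d tissue, the binding protein gene *Igfbp3*, higher by 1.08 (adjusted p = 0.00271 from limma). The receptor gene *Igf1r* differed from PBS by −0.04 in LPS 4 d and −0.09 in LPS 1 d tissue. For *Spp1* only its partners could be read. Of 8 osteopontin receptor genes 4 were higher in LPS 4 d tissue, *Cd44*, *Itgb5* (1.12), *Itga4* (0.62) and *Itgb1* (0.60), and 1 in LPS 1 d tissue, *Cd44*. The related bone matrix genes *Ibsp*, *Dmp1*, *Dspp* and *Mepe* were not called in any comparison.

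Markers of blood-derived cells were read beside the 5 genes called higher. Of 11 monocyte and recruited macrophage markers, 9 were higher and 0 lower in LPS 4 d than in PBS tissue. In LPS 1 d tissue 7 were higher and 1 lower than in PBS tissue. Between LPS 4 d and LPS 1 d tissue they went both ways, with 3 higher and 3 lower. Their summed linear level was 974 to 1477 on the LPS 4 d arrays, 998 to 1082 on the LPS 1 d arrays and 285 to 335 on the PBS arrays. *Ms4a7*, a macrophage gene that resting microglia lack, was at least 26.7-fold higher in LPS 4 d tissue, and *Cd5l*, a macrophage survival gene, at least 4.79-fold higher. *F13a1*, the coagulation factor gene of macrophages, was higher by 2.66 in LPS 4 d tissue, and *Arg1*, arginase, at least 6.99-fold and 14.1-fold higher in LPS 4 d and LPS 1 d tissue. *Chil3* and *Plac8*, monocyte genes, were at least 21.4-fold and 10.00-fold higher in LPS 1 d than in PBS tissue, and *Ms4a4c* was higher by 2.20. *Ccr2*, the chemokine receptor of monocytes, averaged 3.58 in LPS 4 d tissue and was at background in LPS 1 d and PBS tissue. *Mrc1*, the one gene lower than in PBS tissue, had a difference of −0.80 in LPS 1 d tissue and was higher by 0.97 in LPS 4 d tissue. The part of these cells in the 5 increases was not tested.

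Of 13 neutrophil markers 1 was higher in LPS 4 d tissue, *Csf3r* (1.55), and 8 in LPS 1 d tissue, where the summed linear level was 1687 to 4543, with 319.5 to 540 in LPS 4 d and 125 to 208 in PBS tissue. *S100a9* and *S100a8* were higher in LPS 1 d than in PBS tissue by 5.87 and 5.59. *Il1r2* averaged 6.78 in LPS 1 d tissue and was at background on average in PBS tissue, and *Mmp8* was at least 2.31-fold higher. The granule genes *Elane*, *Mpo* and *Camp* were at background in every group. Of 9 markers of macrophages at the brain borders 2 were higher in LPS 4 d tissue, *Stab1* (2.76) and *Mrc1*, while the defining genes *Cd163*, *Lyve1* and *Folr2* were at background in every group. The summed level of that list was 309 to 396 in LPS 4 d, 133 to 155 in LPS 1 d and 124 to 136 in PBS tissue. Of 12 lymphocyte and NK cell markers 3 were called higher in LPS 4 d tissue. There 10 of the 12 were at background, among them the T cell genes *Cd3e*, *Cd3g* and *Cd3d*. The part of lymphocytes, which also express *Cd52*, in its increase was not tested. The summed level of the 12 markers was 91.7 to 104 in LPS 4 d, 82.1 to 83.9 in LPS 1 d and 83.5 to 86.9 in PBS tissue. The one of the 3 above background was *Cd79b*, at least 1.34-fold higher, and *Gzma* and *Nkg7* were not.

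Among resident cells, 3 of 9 astrocyte markers were higher at both times, *Gfap* by 2.50 in LPS 4 d and 2.83 in LPS 1 d tissue, *Vim* by 2.31 and 1.96, and *Aqp4* by 0.88 and 0.65. The profiles of *Vim* and *Aqp4* were among the nearest to *Lgals3*. The summed level of the list was 4537 to 6010 in LPS 4 d, 4022 to 4185 in LPS 1 d and 2881 to 3099 in PBS tissue. Of 8 markers of oligodendrocytes, which also express *Cd9*, 0 were called in LPS 4 d tissue and 4 were lower in LPS 1 d tissue. The lower ones were *Opalin* (−1.15), *Ugt8a* (−0.92), *Aspa* (−0.85) and *Cnp* (−0.63). The summed level of the 8 markers was 5816 to 6613 in LPS 4 d, 5460 to 5737 in LPS 1 d and 6533 to 6661 in PBS tissue. Of 8 endothelial and mural markers 2 were higher in LPS 4 d tissue, *Cldn5* (0.86) and *Cdh5* (0.62), and 1 in LPS 1 d tissue, *Cdh5* (0.85). Of 8 fibroblast and meningeal markers 3 were higher in LPS 4 d tissue, *Col3a1* (1.67), *Dcn* (1.45) and *Lum* (0.72), and 2 in LPS 1 d tissue, *Dcn* (2.40) and *Col3a1* (1.49). The labelled tissue was brain, and the 11 neuronal markers were above background in every group, with 0 called in any comparison and a summed level of 14760 to 15805 in LPS 4 d, 15590 to 16475 in LPS 1 d and 16112 to 16607 in PBS tissue. The part of any of these cell types in the changes of the 6 genes was not tested.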

How the data were processed

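RNA from 9 pools of brain tissue (3 per group) was labelled by the authors with the IVT Express kit and hybridised to Affymetrix HT MG-430 PM arrays. The deposited log2 values per probe set were made by the authors by RMA in Affymetrix Expression Console (version not given in the sources used here), which corrects background, normalizes between arrays and summarises probes, so these steps were not repeated. No sample was dropped or imputed.

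All 45037 probe sets, without 104 control entries, were fitted with limma 3.58.1 (R 4.3.3), with 1 mean per group over the 9 arrays (6 residual and 3.02 prior degrees of freedom), and p-values were adjusted by Benjamini-Hochberg over all probe sets. The methods' analysis of variance was replaced by this moderated test because there were 3 arrays per group, in which an exact permutation test cannot go below p = 0.1. Symbols were those of the platform annotation, brought up to date by Entrez identifier: 28898 probe sets had 1 symbol, 551 several and 15588 none. A gene with several probe sets was read from the brightest on average. The number of arrays limits the precision. Where no array of a group exceeded background, a fold is given as a lower bound, the mean of the other group over background. Such bounds carry no sampling error. The genes examined and all gene lists were chosen with earlier results of these data known, and the lists share some genes (*Cd44*, *Cst3*, *Ctsb*, *Ctsl*, *Ctsz*, *Igf2*, *Lgals3bp* and *Mrc1*). Named genes were the 6 genes, up to 4 per list with the largest called change against PBS in each LPS group, and the 3 nearest in profile to each gene. Other genes were named after their values were seen. RefSeq sequences came with build GRCm38.p6. Alternatives were another moderation, no moderation, rescaling, repeated quantile normalization, a filter on dim probe sets, a fold of 2, a replicate block, other probe sets and leaving out each array. The fit was tested on simulated data. Scripts used Python 3.11.15, numpy 2.4.6, pandas 2.3.3, scipy 1.17.1 and matplotlib 3.10.9.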

Additional observations from a re-analysis of the deposited data

Results flagged for a closer look

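The difference between the LPS groups themselves passed the test for *Gpnmb* (2.67 on the log2 scale), for *Cd52* (1.49) and for the *Igf1* probe set 1419519_PM_at (0.79, by limma), each higher in LPS 4 d than in LPS 1 d tissue on all arrays. The brightest *Igf1* probe set gave 0.34, which missed the threshold (adjusted p = 0.215).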

How the results depend on the processing

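For LPS 4 d and then LPS 1 d against PBS, and last LPS 4 d against LPS 1 d, the number of the 6 genes called higher was 5, 3 and 2. With trend and robust moderation it was 5, 3 and 3, without moderation 4, 3 and 2, and with a fold of at least 2 it was 4, 2 and 2. Rescaling, repeated quantile normalization, the filter on dim probe sets and the probe set with the lowest mean left it at 5, 3 and 2. Leaving out 1 array gave 4 to 5, 3 to 3 and 2 to 4. The 4 in the last comparison came without LPS 4 d replicate 2, where 359 of all genes were called higher. *Cst7* in LPS 4 d against LPS 1 d was also past the test with trend and robust moderation (adjusted p = 0.0451 from limma). The log2 change of *Igf1* in LPS 1 d against PBS was reversed, to 0.10, with its probe set ranked second by mean, an alternative chosen after seeing the data. Over all genes, where 720 were higher and 35 lower, 660 and 91, and 315 and 234 in the 3 comparisons, the counts were 501 and 10, 509 and 51, and 154 and 112 without moderation, and 459 and 5, 462 and 20, and 165 and 155 with a fold of at least 2. Other counts that moved by over 1.5 times came with trend and robust moderation (53 lower in LPS 4 d than in PBS tissue), without LPS 4 d replicate 1 (22 lower against PBS), without LPS 1 d replicate 2 (202 higher and 154 lower against LPS 1 d), without LPS 1 d replicate 3 (22 lower against PBS) and without PBS replicate 3 (14 lower). The cause was not tested. With the replicate block the count of the 6 genes was again 5, 3 and 2. The deviations of arrays with the same replicate number from their group means had correlations between −0.06 and 0.03. Arrays with different numbers had correlations between −0.04 and 0.07, so no pairing by number was apparent in these values.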
